A study of Mus musculus with 3 samples.

Results

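The comparison described here set the transcriptome of 4T1 CSCsp exposed to splenocytes of reinforced activation (R) against that of CSCsp cultured without splenocytes (N). 4T1 is a mouse mammary carcinoma line from the BALB/c strain, and CSCsp are spheroids grown from it in suspension for 7 days to favor cells with properties of stem cells. The members are genes: FPKM (fragments per kilobase of transcript and per aligned fragment, scaled to a fixed total) was summed over the transcript lines of each gene, and 11203 of 24402 gene symbols reached an FPKM of at least 1 in N or in R. The splenocytes came from syngeneic female mice, 8 weeks old when injected, which had carried 4T1 tumors in the mammary fat pad for 28 days. For R they were activated again with anti-CD3/CD28 beads in the presence of IL-2 before a co-culture of 2 days. In a related library (P) CSCsp met splenocytes of the same origin that had been held in saline without this second activation. All groups used spheroids of this single cell line, so they represent one tumor, and bulk RNA does not separate spheroid cells from any splenocytes that stayed with them.

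Each condition was represented by 1 library, made by pooling equal amounts of RNA from independent experiments. Without replicates, no test was run and no SD can be given, and the intervals given (at 95%) cover the counting of fragments only. The libraries held 17894139 (N), 17887652 (P) and 19178982 (R) aligned fragments, and 10923, 10928 and 10966 genes reached an FPKM of 1. The labels of N and P are open to doubt, because the names under which their files were deposited refer to the saline vehicle for the library labelled N and to no treatment for the library labelled P. The libraries are called by their labels throughout, the P value is printed beside N and R for genes described by their FPKM (some are given by log2 ratios of R over N alone), and counts with P as the reference are given for the main families. R over N and R over P share the R library, so similar values in both are not independent.

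Cell type markers were examined before any other family. The 8 epithelial tumor markers were expressed in all 3 libraries, with Epcam (an epithelial adhesion molecule) at 285 in N, 242 in P and 245 in R. Of the stem cell markers, Cd44 was at 80.3 in N, 64.2 in P and 71.3 in R and Cd24a at 93.6 in N, 85.3 in P and 96.5 in R, while Aldh1a1 and Prom1 stayed below an FPKM of 1 in each library. None of the 12 counted stem cell markers was 2-fold apart between R and N.

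Leukocyte RNA was present at a low level, and more of it was found in N and R than in P. Of 12 pan-leukocyte markers 6 reached an FPKM of 1 in N, 2 in P and 7 in R, and Ptprc (CD45) was at 0.201 in N, 0 in P and 0.305 in R. Among 14 neutrophil markers the corresponding numbers were 7, 2 and 6, with S100a8 at 8.197 in N, 0.546 in P and 5.58 in R. The summed FPKM of 17 T cell markers was 1.54 in N, 1.08 in P and 4.04 in R, and Cd3e was at 0 in N, 0 in P and 0.0771 in R. Gzmb (granzyme B), at 0.275 in N, 0 in P and 1.58 in R, was the T cell marker above 1 in R. The 7 NK cell markers stayed below 1 in every library, and Ncr1, Gzma and Nkg7 had no fragments. For 7 B cell markers the sum was 1.14 in N, 0.206 in P and 2.65 in R, with Cd79a at 0.371 in N, 0.206 in P and 0.595 in R. A library labelled as free of splenocytes thus held more myeloid marker RNA than the library labelled P. In bulk samples fewer cells of a type cannot be told apart from less RNA per cell.

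**Figure D1:**
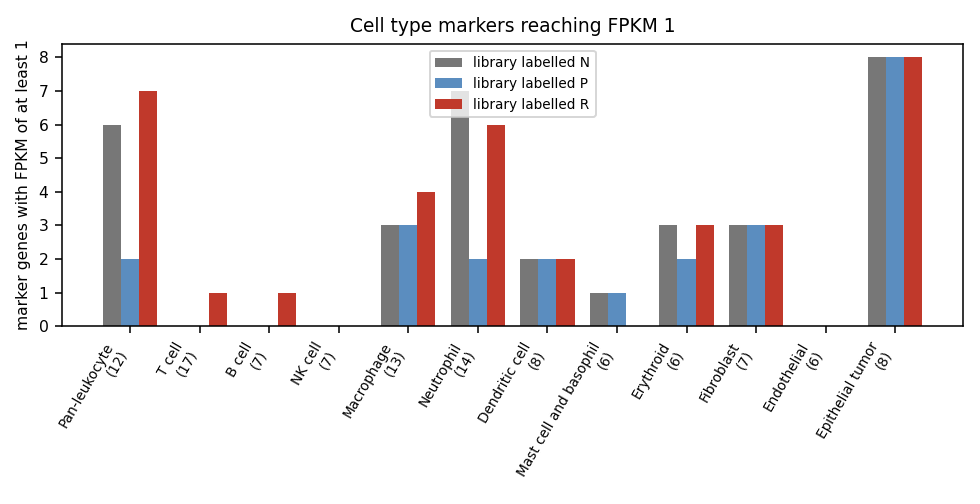
Number of cell type marker genes (y axis) with an FPKM of at least 1 in libraries N, P and R, for 12 marker lists; the number under each name is the number of list members found in the files. Pan-leukocyte markers reached 6, 2 and 7 and neutrophil markers 7, 2 and 6, while the 8 epithelial tumor markers were above 1 in every library.

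Interferon-gamma, which activated T and NK cells secrete, binds the receptor pair IFNGR1 and IFNGR2 and acts through JAK kinases on STAT transcription factors, which bind gamma-activated sites and switch on a further layer of factors, among them IRF1 and CIITA, which in turn drive guanylate-binding proteins, immunity-related GTPases, the immunoproteasome and the major histocompatibility complex (MHC). Type I interferons use a complex with STAT2 and IRF9, which binds interferon-stimulated response elements of antiviral genes, so the target sets of both pathways overlap widely.

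In the comparison of R with N, 346 of 11203 genes were at least 2-fold higher in R (3.09%) and 211 were at least 2-fold lower (1.88%), on the scale of log2 (FPKM + 0.1). The median log2 ratio of all counted genes was 0.08, 60.3% of them lay above 0, and the central 90% lay between -0.55 and 0.76. The filter was passed in both libraries by 10686 genes, in R alone by 280 and in N alone by 237. Of the 346 higher genes 100 were below an FPKM of 1 in N, and of the 211 lower genes 111 were below it in R. At 8-fold or more there were 55 genes on the higher side and 28 on the lower side. With P as the reference, 466 of 11212 genes were higher (4.16%) and 190 lower (1.69%). When only RefSeq transcripts, which carry the gene symbol in the files, were summed, the counts for R over N were 531 higher (5.17%) and 390 lower (3.80%) of 10270 genes, so single genes with reads on assembled transcripts are marked below where this setting ends their call.

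Genes with an FPKM of at least 5 were ranked by log2 ratio, leaving out predicted genes, microRNAs, snoRNAs and ribosomal pseudogenes. Among the 25 highest of this ranking, 23 belonged to the family or marker lists examined here. These were chiefly guanylate-binding proteins, immunity-related GTPases, MHC class II genes and chemokines. Of the 25 lowest genes of the same ranking 15 were in one of these lists, with histone genes the most frequent. The lists were chosen with earlier results of these data known, so both counts were partly fixed in advance.

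**Figure D2:**
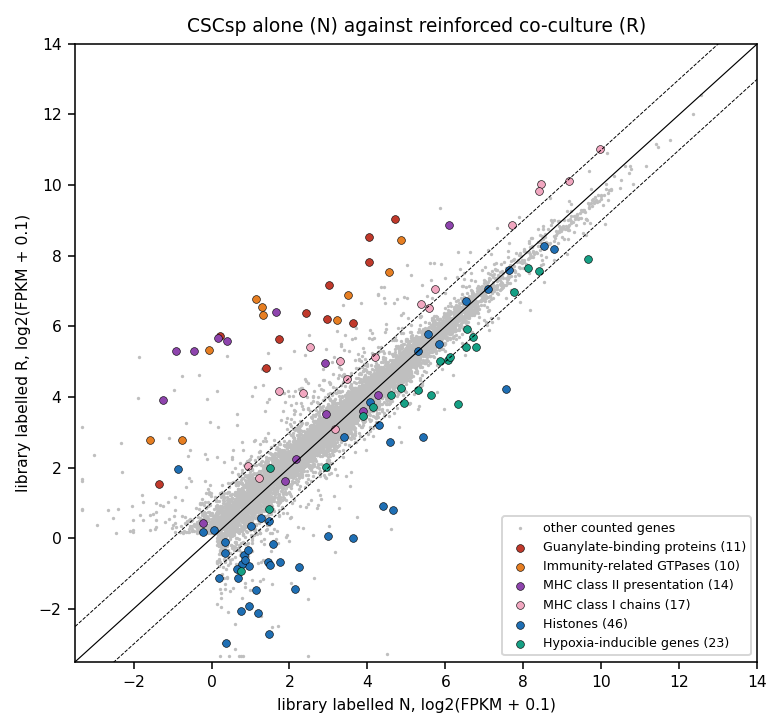
Each point is 1 of the 11203 counted genes, at its log2 (FPKM + 0.1) in the library labelled N (x axis) and the library labelled R (y axis); the solid line marks equal values and the dashed lines a 2-fold ratio. All 11 guanylate-binding proteins and all 10 immunity-related GTPases lie above the upper dashed line, and 29 of 46 histone genes lie below the lower one.

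**Figure D3:**
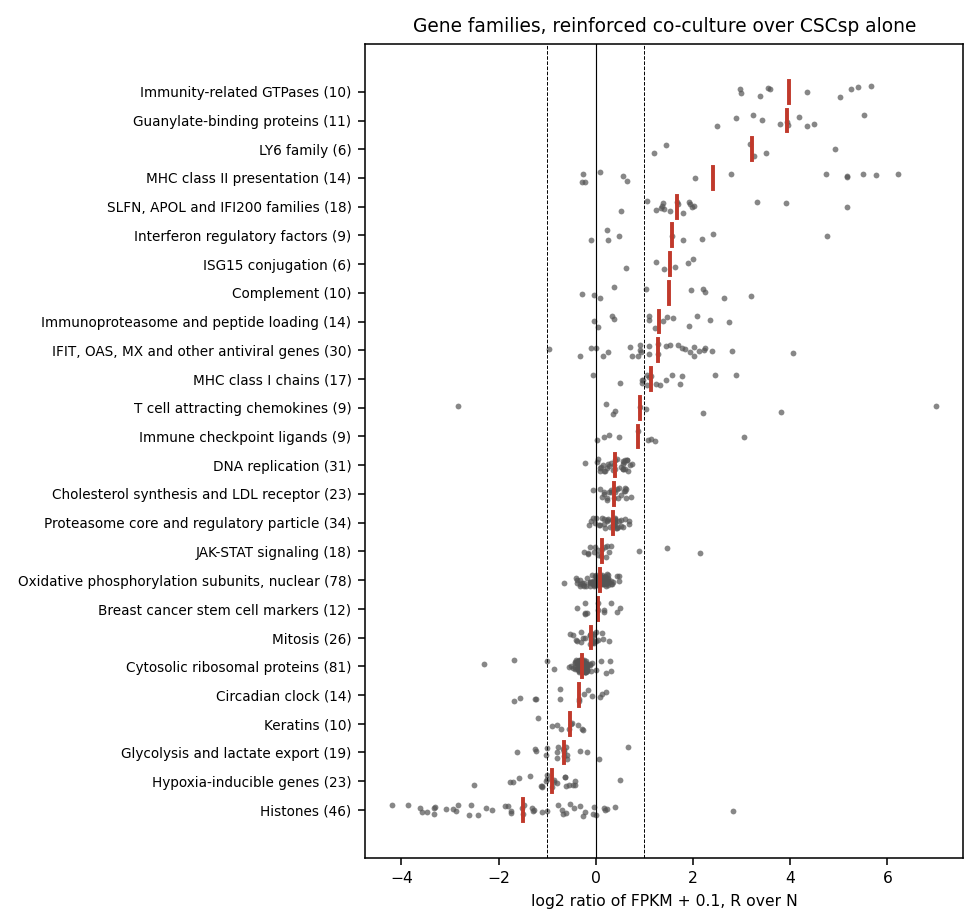
Log2 ratio of FPKM + 0.1, R over N (x axis), for each counted member (points) of 26 gene families (rows, with the number of members); red bars are family medians and dashed lines a 2-fold ratio. Medians run from 3.97 for immunity-related GTPases to -1.49 for histones, and oxidative phosphorylation subunits stay close to 0.

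Signal transduction genes differed in part. Socs1, the feedback inhibitor of JAK kinases, had an FPKM of 9.82 in N, 3.54 in P and 43.5 in R, which made it 4.43-fold higher in R than in N (counting interval 3.93 to 4.997). Stat2 was at 29.8 in N, 20.9 in P and 82.8 in R. These were the 2 of 18 counted JAK-STAT genes that were 2-fold higher, against 3.09% of all counted genes, and none was 2-fold lower. The receptor chains and kinases lay close to 0 on the log2 ratio, with Ifngr1 at -0.16, Ifngr2 at -0.23, Jak1 at 0.04 and Jak2 at -0.04, and Stat3 was at 0.10.

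In a group of 9 counted genes, made up of interferon regulatory factors and Batf2, 5 were at least 2-fold higher and none lower, with a median log2 ratio of 1.56. Batf2, a partner of IRF1 in macrophages, was at 1.22 in N, 0.6205 in P and 35.6 in R, a 29.1-fold ratio between R and N (20.6 to 42.5). Irf8, a factor of myeloid differentiation that interferon-gamma also induces in other cells, was at 7.58 in N, 4.62 in P and 40.9 in R. Irf1 was the most highly expressed of the family, at 79.4 in N, 53.4 in P and 275 in R. Irf7 (48.5 in N, 38.01 in P and 221 in R) and Irf9 (5.34 in N, 6.66 in P and 15.9 in R) were the remaining members on the higher side. With P as the reference 6 members were 2-fold higher, and the median was 1.25. Without the genes that share a locus the median of R over N was 0.47.

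Promoter sequence is shown for the 4 interferon-related genes of highest ratio that have a RefSeq promoter entry, because these genes moved together. The 250 bases before the RefSeq start site (GRCm38.p6) are given on the strand of the gene. Capitals mark the gamma-activated site TTCNNNGAA (GAS), the core of the interferon-stimulated response element (ISRE, GAAA repeated after a spacer of any 2 bases) and, for MHC class II genes, the Y box core TGATTGG, each searched on both strands. The Y box was added to the search after these sequences had been seen.
Cxcl9: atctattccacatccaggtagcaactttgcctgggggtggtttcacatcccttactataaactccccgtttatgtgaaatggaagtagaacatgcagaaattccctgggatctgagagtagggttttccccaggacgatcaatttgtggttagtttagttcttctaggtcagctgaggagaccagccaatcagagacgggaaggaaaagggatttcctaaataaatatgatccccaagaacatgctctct
H2-DMb1: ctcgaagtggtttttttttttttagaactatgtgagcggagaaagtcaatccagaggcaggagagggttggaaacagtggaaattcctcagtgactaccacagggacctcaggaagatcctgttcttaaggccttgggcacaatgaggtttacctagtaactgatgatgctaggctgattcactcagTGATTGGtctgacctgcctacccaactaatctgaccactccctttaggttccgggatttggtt
H2-DMb2: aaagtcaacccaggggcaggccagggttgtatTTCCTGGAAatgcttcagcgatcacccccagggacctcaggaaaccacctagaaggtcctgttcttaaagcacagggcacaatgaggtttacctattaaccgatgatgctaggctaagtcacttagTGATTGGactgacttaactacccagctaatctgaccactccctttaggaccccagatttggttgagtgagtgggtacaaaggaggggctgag
Tgtp1: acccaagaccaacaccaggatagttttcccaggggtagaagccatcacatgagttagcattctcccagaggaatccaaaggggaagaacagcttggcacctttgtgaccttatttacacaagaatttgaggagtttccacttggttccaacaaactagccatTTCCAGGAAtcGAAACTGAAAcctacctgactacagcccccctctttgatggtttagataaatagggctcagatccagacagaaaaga

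The windows are chr5:92328080-92328329 for Cxcl9 (minus strand), chr17:34152941-34153190 for H2-DMb1 and chr17:34144999-34145248 for H2-DMb2 (both plus strand), and chr11:48992247-48992496 for Tgtp1 (minus strand). The Tgtp1 window held a GAS and an ISRE core, which began 88 and 77 bases before the start site and lay next to each other without overlap. H2-DMb1 and H2-DMb2 each held a Y box core, 63 and 92 bases before the start, and the H2-DMb2 window also had a GAS. In the Cxcl9 window neither the GAS nor the ISRE letters were found. It held 1 Y box core, which is not marked because Cxcl9 is not an MHC class II gene.

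Over all 8453 counted genes with a promoter entry, 5.80% of windows held a GAS, 2.77% an ISRE core and 10.2% a Y box core. Among 29 genes at least 8-fold higher in R, 9 held a GAS (31.0%) and 11 an ISRE core (37.9%). Of 235 genes at least 2-fold higher 30 held a GAS (12.8%) and 52 an ISRE core (22.1%), against 5.62% and 2.23% of 8124 genes within 2-fold. Gbp2, Gbp2b, Gbp5 and Gbp7 were the guanylate-binding protein genes with an ISRE core, of 5 with an entry. The Y box core was in 6 of 10 MHC class II presentation genes, among them H2-Aa and H2-Eb1. These 6 include H2-DMb1 and H2-DMb2, whose windows had been seen before the search. MHC class I genes, among them H2-D1 and H2-T23, also held it. It was in 7 of 29 genes at least 8-fold higher (24.1%) and in 28 of 235 at least 2-fold higher (11.9%). A match of letters is a description of the window and shows no binding.

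Guanylate-binding proteins are large GTPases that assemble on pathogen vacuoles and membranes, and all 11 counted members were at least 2-fold higher in R. Their log2 ratios ran from 2.48 (Gbp9) to 5.51 (Gbp10), with a median of 3.92. Gbp2 reached the highest level of the family, with an FPKM of 25.9 in N, 13.3 in P and 528 in R. Its ratio of R to N was 20.4-fold (19.3 to 21.7). Gbp2b was at 16.3 in N, 7.37 in P and 369.6 in R, Gbp3 at 16.3 in N, 7.03 in P and 227 in R and Gbp4 at 7.96 in N, 4.14 in P and 145 in R. Gbp10, nearly silent outside R, was at 1.07 in N, 1.14 in P and 53.3 in R. Gbp5, which promotes inflammasome assembly, was at 3.198 in N, 1.396 in P and 49.96 in R. Most members share a StringTie locus or near-identical sequence with a neighbor, so the division of reads among them is uncertain. Gbp5 and Gbp11 share no StringTie locus and had log2 ratios of 3.92 and 2.88, but their sequences were not compared with those of other members. With P as the reference all 11 were higher and the median was 4.99.

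The immunity-related GTPases (IRG), which disrupt vacuoles of intracellular parasites, behaved alike. All 10 counted members were at least 2-fold higher in R, with a median log2 ratio of 3.97. Tgtp1 was at 2.096 in N, 1.18 in P and 110.4 in R, and the near-identical Tgtp2 at 2.35 in N, 1.599 in P and 93.4 in R. Iigp1 (Irga6) was at 2.38 in N, 2.46 in P and 80.5 in R, a ratio of 33.8-fold (28.3 to 40.7). Igtp (Irgm3) had the highest level, at 28.8 in N, 15.99 in P and 348 in R. Irgm1 and Irgm2, regulators that keep the effector GTPases inactive on self membranes, were at 23.3 in N, 16.3 in P and 187 in R and at 11.3 in N, 7.24 in P and 118 in R. For Gm4951 and F830016B08Rik the reads lay mainly on assembled transcripts, and RefSeq transcripts alone gave log2 ratios of 0.91 and 0.63 instead of 3.54 and 4.35.

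MHC class II molecules present extracellular peptides to CD4 T cells, and their genes are controlled by the coactivator CIITA. Ciita was at 0.3201 in N, 0.256 in P and 15.1 in R, that is 32 fragments in N and 1496 in R, a ratio of 47.1-fold (33.2 to 69.2). H2-Aa had an FPKM of 1.03 in N, 0 in P and 50.9 in R, H2-Ab1 of 3.06 in N, 1.92 in P and 84.4 in R and H2-Eb1 of 1.23 in N, 0.0876 in P and 47.8 in R. Cd74, the invariant chain, was expressed in every library, at 67.97 in N, 46.1 in P and 466 in R. The peptide editor subunits were also higher, with H2-DMa at 7.48 in N, 10.1 in P and 31.2 in R and H2-DMb2 at 0.626 in N, 0.161 in P and 39.6 in R. H2-DMb1 shares its locus and most sequence with H2-DMb2 (log2 ratio 6.21, but 0.07 from RefSeq transcripts alone), so the pair is best read together.

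In all, 8 of 14 counted MHC class II presentation genes were at least 2-fold higher and none lower, with a median of 2.41. The median was 3.74 with P as the reference, where 10 of 14 were higher. H2-Aa had no fragments in P. The median of R over N was 0.64 without the genes that share a locus and 1.34 without a filter. Professional antigen presenting cells express these genes as well. An FPKM of 1 was reached in R by 4 of 13 macrophage, 2 of 8 dendritic cell and 1 of 7 B cell markers, against 3, 2 and 0 in N. The summed FPKM was 71.3 in N, 32.9 in P and 69.00 in R for macrophage markers, 5.34 in N, 4.69 in P and 6.45 in R for dendritic cell markers and 1.14 in N, 0.206 in P and 2.65 in R for B cell markers. The macrophage markers above 1 in R were Mpeg1 (0.697 in N, 0.227 in P and 24.5 in R), Cd68 (21.4 in N, 18.04 in P and 19.2 in R), Cd14 (18.4 in N, 12.5 in P and 17.1 in R) and Lyz2 (28.9 in N, 0.313 in P and 6.51 in R), whereas Adgre1 was at 0.0417 in N, 0.02601 in P and 0.0353 in R. Of the dendritic cell markers Itgax was at 0.641 in N, 0.0109 in P and 0.0386 in R, and Flt3, Clec9a and Siglech had no fragments in R. The 2 counted dendritic cell markers lay above 0, with log2 ratios of R over N of 0.21 and 0.92. The 1 counted B cell marker had a log2 ratio of 1.82 over N and 3.55 over P. The part of such cells in the MHC class II values was not tested.

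MHC class I genes, which present cytosolic peptides to CD8 T cells, started from a high level. B2m, the common light chain, was at 999.7 in N, 888 in P and 2062 in R, the largest gain in FPKM of any gene (2.06-fold, 2.02 to 2.103). Heavy chain H2-K1 was at 352 in N, 303 in P and 1050.00 in R, although RefSeq transcripts alone gave it a log2 ratio of 0.62 instead of 1.58. H2-D1 was at 574 in N, 562 in P and 1104 in R, just under 2-fold, while RefSeq transcripts alone gave a log2 ratio of 4.21. The nonclassical H2-T23 was at 336 in N, 274 in P and 919.9 in R. Nlrc5, the coactivator of MHC class I genes, was at 5.68 in N, 5.75 in P and 42.8 in R. Of 17 counted members 12 were at least 2-fold higher and none lower, with a median of 1.14 against 1.30 for R over P. Reads of the H2-Q, H2-T, H2-K and H2-D genes can map to several of them.

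The machinery that makes and loads class I peptides moved with them. Psmb9, Psmb10 and Psmb8 are the inducible catalytic subunits that replace those of the standard proteasome. Psmb9 was at 34.6 in N, 22.2 in P and 176 in R, Psmb10 at 52.4 in N, 33.3 in P and 222 in R and Psmb8 at 160.3 in N, 126 in P and 441 in R. Tap1, a subunit of the peptide transporter, was at 32.00 in N, 20.9 in P and 214 in R (6.68-fold, 6.35 to 7.03), and its partner Tap2 at 63.9 in N, 45.6 in P and 166 in R. Erap1, which trims peptides, was at 5.46 in N, 4.55 in P and 20.9 in R. In this family 10 of 14 genes were at least 2-fold higher, with a median of 1.29. Tapbpl was among them only when assembled transcripts were included (1.59 against 0.13). None of the 34 genes of the standard proteasome core and regulatory particle was 2-fold apart, and their median was 0.35.

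**Figure D4:**
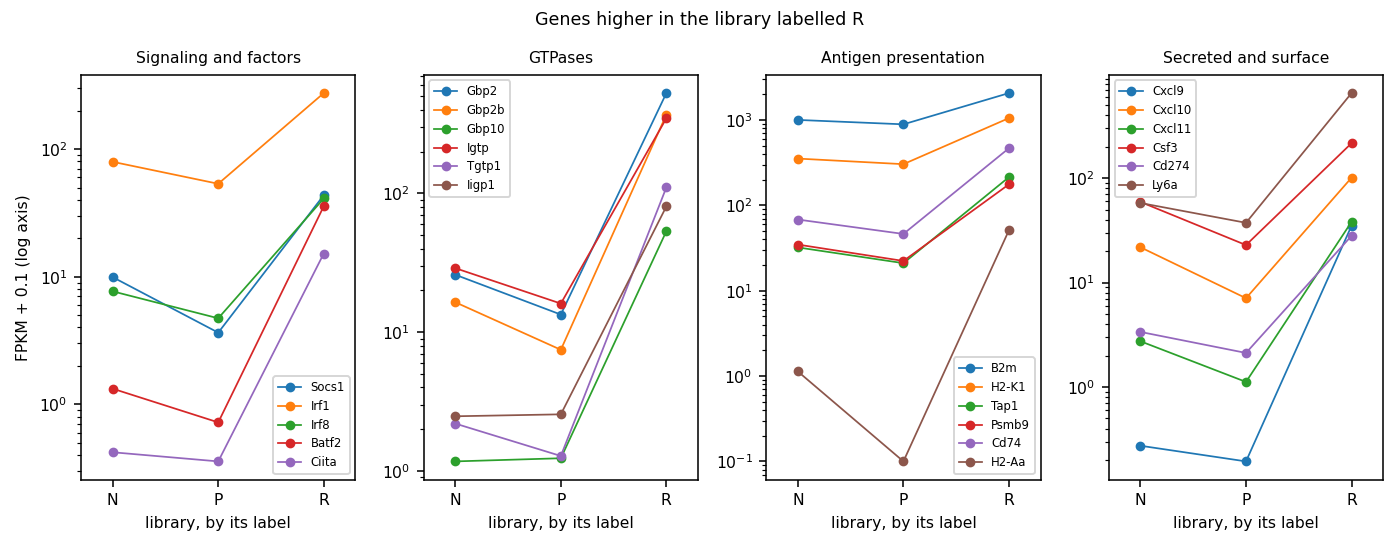
FPKM + 0.1 (log axis) in libraries N, P and R for signaling genes and transcription factors, GTPases, antigen presentation genes, and secreted or surface molecules; points are single libraries and lines join the values of 1 gene. In each panel every gene is highest in R, and H2-Aa has no fragments in P.

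Antiviral effector genes were also higher, by smaller ratios. Of 30 counted members 18 were at least 2-fold higher in R and none lower, with a median log2 ratio of 1.28. Samhd1, which depletes nucleotides, was at 14.3 in N, 13.1 in P and 101 in R. Ifit3, a binder of foreign RNA, was at 21.2 in N, 12.97 in P and 112 in R. Bst2 (tetherin), which holds budding virus at the membrane, was at 339 in N, 249 in P and 1093 in R. Oas3 and Oasl2, of the oligoadenylate synthetase family, were at 16.5 in N, 13.6 in P and 59.3 in R and at 41.8 in N, 34.1 in P and 144 in R. Ifitm3 had the highest level but was not 2-fold apart (829 in N, 602 in P and 1346 in R). Mx2 was at 21.4 in N, 8.82 in P and 10.9 in R, the lowest ratio of the family. Calls of Oasl1 and Ifit1 depended on assembled transcripts, since RefSeq transcripts alone gave log2 ratios of 0.00 and -1.49 instead of 1.09 and 1.29.

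ISG15 is a ubiquitin-like modifier, and 5 of 6 genes of its pathway were at least 2-fold higher. Isg15 itself was at 96.2 in N, 63.6 in P and 226 in R, the activating enzyme Uba7 at 16.2 in N, 15.7 in P and 50.5 in R, the conjugating enzyme Ube2l6 at 12.7 in N, 12.5 in P and 51.1 in R and the ligase Herc6 at 8.45 in N, 6.92 in P and 31.8 in R. Ubd (FAT10), a second ubiquitin-like modifier, was at 0.373 in N, 0 in P and 7.08 in R, from 6 fragments in N and 126 in R.

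In a group of 16 counted genes, made up of the PARP family and Dtx3l, 7 were at least 2-fold higher and none lower. Parp14 was at 12.02 in N, 8.34 in P and 50.1 in R and Dtx3l at 17.4 in N, 12.9 in P and 49.8 in R. Parp9 and Parp11 did not keep their call with RefSeq transcripts alone (0.59 and -1.08 instead of 1.68 and 2.41). Of 35 TRIM ligases 5 were 2-fold higher, against 3.09% of all counted genes. Among them were Trim30a (7.096 in N, 5.98 in P and 27.9 in R) and Trim21, the cytosolic antibody receptor (8.09 in N, 7.91 in P and 21.03 in R).

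In the group of Schlafen, apolipoprotein L and IFI200 genes 17 of 18 were at least 2-fold higher, with a median of 1.68. Apol6 was at 0.4096 in N, 0.3796 in P and 18.3 in R and Apol9a at 32.1 in N, 37.01 in P and 112 in R. Ifi204, at 49.9 in N, 41.6 in P and 160.1 in R, is a sensor of cytosolic DNA, and its direction turned with RefSeq transcripts alone (-3.78). Of 17 genes of RNA and DNA sensing 5 were at least 2-fold higher. Zbp1, a sensor of Z-form nucleic acid that can start necroptosis, was at 19.2 in N, 9.43 in P and 120.01 in R (6.26-fold, 5.73 to 6.83). Tlr3 was at 4.004 in N, 4.103 in P and 13.6 in R and Ifih1 (MDA5) at 4.42 in N, 4.402 in P and 14.03 in R.

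Chemokines did not move as 1 group. The ligands of CXCR3, the receptor of activated T cells, were all higher in R. Cxcl9 had the highest log2 ratio among genes that reached an FPKM of 5, at 0.174 in N, 0.0939 in P and 34.9 in R. Its 9 fragments in N and 1918 in R gave a ratio of 201-fold (106 to 440.2), and most of these fragments lay on an assembled transcript (log2 ratio 1.69 from RefSeq transcripts alone). Cxcl10 was at 21.7 in N, 6.997 in P and 101 in R and Cxcl11 at 2.64 in N, 1.02 in P and 38.1 in R. Ccl5, a T cell and monocyte attractant, was at 9.72 in N, 6.81 in P and 12.8 in R, within 2-fold. Ccl22, which attracts regulatory T cells, was lower in R than in N but higher than in P, at 2.83 in N, 0.0344 in P and 0.311 in R.

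Monocyte and neutrophil attractants divided into 2 patterns. Ccl2 was at 11.5 in N, 3.26 in P and 39.7 in R, Ccl7 at 1.33 in N, 0.274 in P and 4.65 in R and Ccl8 at 0.273 in N, 0 in P and 1.89 in R, all higher in R than in both other libraries. Ccl3, Ccl4, Ccl6 and Ccl9, which myeloid cells express, were at least 2-fold lower in R than in N and nearly absent from P. Ccl6 was at 6.38 in N, 0.0702 in P and 1.702 in R, Ccl3 at 1.22 in N, 0 in P and 0.364 in R, Ccl9 at 1.29 in N, 0 in P and 0.258 in R and Ccl4 at 1.65 in N, 0 in P and 0 in R. With the exception of Ccl4, which had no fragments in P and R, they were higher in R than in P. Cxcl3 was at 4.56 in N, 0.6901 in P and 1.14 in R, whereas Cxcl1 was at 127 in N, 41.4 in P and 151 in R and Cxcl5 at 12.4 in N, 6.21 in P and 21.3 in R. Both were within 2-fold of N, and Cxcl5 was lower with RefSeq transcripts alone (log2 ratio -2.11 instead of 0.77). The growth factor of neutrophils, Csf3 (G-CSF), was at 59.2 in N, 22.8 in P and 217 in R (3.66-fold over N, 3.46 to 3.87). The macrophage marker Lyz2, at 28.9 in N, 0.313 in P and 6.51 in R, and Mmp12, a macrophage elastase, at 5.43 in N, 0.0155 in P and 0.202 in R, had the same order as Ccl6. Mpeg1, another macrophage marker, was instead highest in R, while Cd68 and Cd14 were within 2-fold of N. Cxcl3, Il1b, Lyz2 and Mmp12 were lower in R than in N but higher than in P, so their direction rests on the labels of N and P. The part of myeloid cells in these chemokine values was not tested.

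Among other cytokines, Tnfsf10 (TRAIL), a death ligand, was at 2.41 in N, 1.79 in P and 20.01 in R. Il1a was at 9.88 in N, 4.51 in P and 27.4 in R and Lif at 21.98 in N, 14.7 in P and 60.3 in R, while Il1b was at 1.95 in N, 0.355 in P and 0.681 in R. Of 15 counted interleukins and TNF family cytokines 6 were at least 2-fold higher and 1 lower. Il18bp, an interleukin-18 antagonist, was at 4.85 in N, 4.36 in P and 18.8 in R, but RefSeq transcripts alone gave 0.00 in place of 1.94.

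Ligands of inhibitory T cell receptors were also on the higher side. Cd274 (PD-L1) was at 3.27 in N, 2.02 in P and 28.00 in R, a ratio of 8.56-fold (7.43 to 9.91). Lgals9, a ligand of TIM-3, was at 50.4 in N, 41.1 in P and 111 in R and Nt5e (CD73), which makes adenosine, at 100.02 in N, 78.3 in P and 184 in R. In total 4 of 9 counted members were at least 2-fold higher, and Cd276, Cd47 and Vtcn1 lay within 2-fold (0.27, 0.18 and 0.03). Tnfrsf14 kept its call only with assembled transcripts (1.08 against 0.43). Ido1, which breaks down tryptophan and limits T cells, was low, at 0.0744 in N, 0.0322 in P and 1.39 in R. Irg1 (Acod1), which makes itaconate, was at 0.566 in N, 0.0627 in P and 3.14 in R.

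Surface proteins of the LY6 family were all higher, 6 of 6, with a median of 3.21. Ly6a (Sca-1), used as a marker of mouse stem and progenitor cells and inducible by interferon, was at 57.9 in N, 37.3 in P and 655 in R (11.3-fold, 10.6 to 12.1). Ly6e was at 99.8 in N, 88.5 in P and 273 in R. Ly6d, at 14.05 in N, 29.3 in P and 32.5 in R, was close to equal in P and R. Ly6a, Ly6c1 and Ly6c2 share a locus with other symbols. Without the genes that share a locus, the family median was 1.45.

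Complement genes had a median log2 ratio of 1.503, and 6 of 10 counted members were at least 2-fold higher. The median fell to 0.71 without the genes that share a locus and to 0.23 without a filter. C1s1 and C1ra, the proteases of the C1 complex, were at 9.23 in N, 5.201 in P and 58.3 in R and at 9.82 in N, 5.15 in P and 45.6 in R, and C4b at 4.24 in N, 4.34 in P and 39.4 in R. C3, the central component, was equal in N and R and lower in P (527 in N, 155 in P and 515 in R). Cfb kept its call only with assembled transcripts (1.97 against -0.11). Lcn2, an iron-binding acute phase protein, had the second largest gain in FPKM, at 1126 in N, 545 in P and 1932 in R, and was not 2-fold apart.

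Of 26 genes of death receptors, necroptosis and pyroptosis 2 were at least 2-fold higher, against 3.09% of all counted genes. Mlkl, the pore former of necroptosis, was at 9.700 in N, 7.96 in P and 34.1 in R and Casp1, the inflammasome caspase, at 15.1 in N, 14.8 in P and 33.9 in R. Of 21 NF-kB genes 1 was 2-fold higher, a share near that of all genes (3.09%), and the median was 0.14. With P as the reference 3 of 20 were higher, with a median of 0.41. The member higher than in N was Icam1, an adhesion ligand for leukocytes, at 7.22 in N, 3.53 in P and 18.2 in R. Nfkbia, the feedback inhibitor, was at 135 in N, 86.1 in P and 93.4 in R.

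Many of these genes were neighbors on the chromosome. When genes at least 2-fold higher were joined across gaps of up to 200 kb, 100 of 346 (28.9%) fell into 16 groups of at least 4. Coordinates are those of the files, which match GRCm38. The MHC class II region at chr17:33919478-34344645 held 13 such genes among 26 counted, from Tapbp and H2-K1 to H2-Ea-ps. All 10 counted genes of the IFI200 region at chr1:173521311-174031933 were 2-fold higher, with log2 ratios of 1.33 to 3.31. The Irgm1, Tgtp1 and Ifi47 region at chr11:48865249-49135387 had 9 of 10. Guanylate-binding protein regions lay on chromosome 3 (7 of 7 counted genes in 248 kb) and on chromosome 5 (6 of 6 in 332 kb). Ly6 genes on chromosome 15 (6 of 6), Ifit genes on chromosome 19 (5 of 5) and C1r and C1s genes on chromosome 6 (5 of 5) formed further groups. Members of such groups often share reads, and they are not independent of each other.

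On the lower side, 4 groups held 32 genes, and 3 of these groups were histone loci. The histone region at chr13:23555032-23761249 held 13 lower genes among 15 counted, with a median log2 ratio of -2.83. A second region at chr13:21715713-22041362 held 10 of 15, and Hist2 genes on chromosome 3 held 5 of 7. The fourth group was formed by Ccl9, Ccl6, Ccl3 and Ccl4 on chromosome 11.

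Histone genes had the lowest median of all families with the filter and pseudocount used here and N as the reference. Hypoxia-inducible genes, described below, were lower under some alternatives. With a filter of FPKM 5 the median was -0.57 for histones and -0.95 for hypoxia-inducible genes. With a pseudocount of 1 the values were -0.80 and -0.85, and with P as the reference -0.80 and -1.07. Of 46 counted histone genes 29 were at least 2-fold lower in R and 1 was higher, with a median log2 ratio of -1.49. An FPKM of 1 was reached by 43 histone genes in N and by 22 in R, so many passed the filter through N alone. Such genes are lower in R by the filter itself, so the count and the median lean to that side. Hist1h1c, a linker histone, was by far the most abundant of the lowered genes, at 187 in N, 82.2 in P and 18.5 in R, that is 10.1-fold lower in R (8.85 to 11.5). Hist1h2bg was at 25.2 in N, 6.66 in P and 1.65 in R, Hist1h2bc at 23.7 in N, 14.8 in P and 6.46 in R and Hist1h4i at 12.2 in N, 7.76 in P and 0.904 in R. In each of these the P library lay between N and R. The single higher member was Hist2h2aa2 (0.449 in N, 0.215 in P and 3.78 in R), a near-identical copy of Hist2h2aa1 (42.96 in N, 21.6 in P and 7.17 in R), so reads may be divided unequally between them.

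The lowered histones were those of the replication-dependent clusters. Of 38 counted genes of the Hist clusters 29 were 2-fold lower, a count to which the same limit of the filter applies. Their summed FPKM was 499 in N, 319 in P and 179 in R. The 8 other histone genes, among them the variants H2afz (199 in N, 210.3 in P and 194 in R), H3f3a (137 in N, 145 in P and 132 in R) and H2afx (39.5 in N, 43.7 in P and 39.4 in R), were all within 2-fold, with a median of -0.13. Messenger RNA of the replication-dependent genes ends in a stem-loop in place of a poly(A) tail, so its share in a library depends on how RNA was selected, which the labels and methods do not state. Its part in the histone values was not tested. Of the 38 genes 28 were below an FPKM of 5 in N and in R. With P as the reference 15 of 32 histone genes were 2-fold lower, and the median was -0.80.

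DNA replication genes did not share the direction of the histones. Of 31 members 30 had a log2 ratio above 0, against 60.3% of all counted genes. None was 2-fold apart, and the median was 0.39. Pcna, the sliding clamp, was at 61.9 in N, 69.7 in P and 83.5 in R. The 26 mitosis genes had a median of -0.09, with none 2-fold apart.

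Genes that low oxygen induces through hypoxia-inducible factors were lower in R. Of 23 counted members 11 were at least 2-fold lower, none was 2-fold higher and 22 lay below 0, with a median of -0.90. Ndrg1, a stress-responsive gene, was at 811 in N, 989.7 in P and 238 in R, 3.401-fold below N in the R library (3.34 to 3.47). Adm (adrenomedullin), a vasodilator peptide, was at 80.3 in N, 45.2 in P and 13.96 in R. Vegfa, the main angiogenic factor, was at 105 in N, 111 in P and 51.6 in R, and the mitophagy receptor Bnip3 at 91.6 in N, 93.5 in P and 42.7 in R. Egln1 (PHD2), the oxygen sensor of the pathway, was at 109.9 in N, 97.8 in P and 42.9 in R and just under 2-fold with RefSeq transcripts alone (-0.88). Car9, a carbonic anhydrase, was at 279 in N, 295 in P and 203 in R, within 2-fold. Ero1l, an oxidase of protein folding that is not in the list, was at 288 in N, 262 in P and 87.9 in R. P and N were close for most of these genes, and with P as the reference 13 of 23 were 2-fold lower with a median of -1.07.

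Ankrd37, a small ankyrin repeat gene, was the hypoxia-inducible gene of lowest ratio whose promoter window held the core of the hypoxia response element, ACGTG. Its FPKM was 49.3 in N, 64.6 in P and 16.4 in R, a 3.0-fold lower value in R (2.61 to 3.46). The 250 bases before its start site, at chr8:45999851-46000100 on the minus strand, are shown with the 2 matches in capitals, which begin 241 and 6 bases before the start.
Ankrd37: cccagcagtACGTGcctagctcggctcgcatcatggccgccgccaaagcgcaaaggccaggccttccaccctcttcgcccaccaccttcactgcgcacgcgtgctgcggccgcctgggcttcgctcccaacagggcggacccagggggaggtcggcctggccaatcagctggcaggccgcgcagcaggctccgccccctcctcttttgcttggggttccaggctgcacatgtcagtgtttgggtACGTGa

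The core was found in 10 of 20 hypoxia-inducible genes with a promoter entry (50%), against 22.3% of all counted genes with an entry. It was in 29.8% of 94 genes at least 2-fold lower and in 15.3% of 235 genes at least 2-fold higher. It is a short motif that occurs often in GC-rich promoters, and Ndrg1 and Adm did not hold it within this window.

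Glycolysis genes followed with a median of -0.66, and 17 of 19 lay below 0. Slc2a1 (GLUT1), the glucose transporter, was at 243 in N, 245 in P and 104 in R (2.34-fold lower, 2.27 to 2.42). Pgam1 was at 781 in N, 801 in P and 386 in R, and Eno2 at 33.8 in N, 39.6 in P and 14.2 in R. The abundant enzymes Aldoa (1786 in N, 1801 in P and 1039.6 in R), Ldha (1149 in N, 1198 in P and 759.7 in R) and Pkm (2258 in N, 2260.3 in P and 1499 in R) were lower by less than 2-fold. Hk2, which phosphorylates glucose, had a log2 ratio above 0 (31.8 in N, 37.5 in P and 50.3 in R), also within 2-fold. Gapdh, at 38.97 in N, 70.6 in P and 12.6 in R, was measured almost entirely on assembled transcripts, so its log2 ratio of -1.62 is uncertain (-0.18 from RefSeq transcripts alone). Bsg (basigin), the chaperone of lactate transporters, was at 1095 in N, 910.2 in P and 479 in R. Subunits of oxidative phosphorylation encoded in the nucleus had a median of 0.08, and none of 78 was 2-fold apart.

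**Figure D5:**
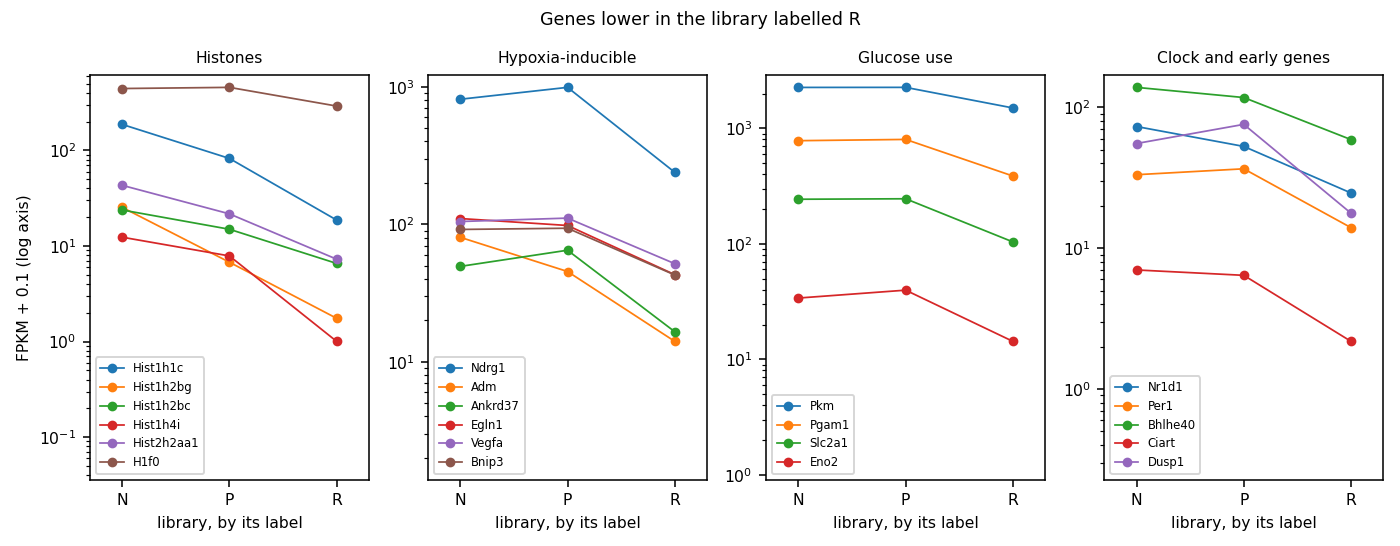
FPKM + 0.1 (log axis) in libraries N, P and R for histone genes, hypoxia-inducible genes, glucose use genes, and clock and immediate early genes; points are single libraries and lines join the values of 1 gene. In each panel every gene is lowest in R, and P lies between N and R for 5 of the 6 histone genes shown.

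Some members of smaller groups were also lower. The clock repressors Nr1d1 (REV-ERB alpha), at 72.99 in N, 52.7 in P and 24.6 in R, and Bhlhe40, at 139 in N, 117 in P and 58.9 in R, were among 4 of 14 circadian genes that were 2-fold lower, with Ciart (6.91 in N, 6.32 in P and 2.08 in R) and Per1 (33.1 in N, 36.5 in P and 13.9 in R). Per1 was within 2-fold with RefSeq transcripts alone (-0.56), and the clock activators Clock and Arntl had log2 ratios of 0.20 and 0.13. Dusp1, a phosphatase that ends MAP kinase signaling, was at 55.3 in N, 75.6 in P and 17.6 in R, the 1 of 26 immediate early genes that was 2-fold lower. Fosl1 was the 1 that was higher, at 19.4 in N, 19.2 in P and 42.7 in R. Over all counted genes 1.88% were lower and 3.09% higher, so these single genes do not set the group apart. The inducible chaperones Hspa1a (41.9 in N, 41.3 in P and 19.96 in R) and Hspa1b (163 in N, 154 in P and 75.7 in R) and the small heat shock protein Hspb1 (15.5 in N, 8.07 in P and 5.56 in R) were 2-fold lower, while the 26 chaperones had a median of 0.12.

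Keratins were all below 0, with a median of -0.53, and Krt14, of basal epithelium, was the member that was 2-fold lower, at 32.3 in N, 33.6 in P and 14.04 in R. Krt18, the most abundant keratin, was at 779 in N, 653 in P and 528 in R. The 11 counted S100 genes were below 0 as well, and S100a9 (5.74 in N, 0 in P and 2.03 in R), which neutrophils express, was the 1 that was 2-fold lower, although it had no fragments in P. Cytosolic ribosomal protein genes had a median of -0.28, with 77 of 81 below 0. Rpl30, Rps27 and Rpl26 were 2-fold lower, and each shares a locus with another symbol. Rpl26 turned direction with RefSeq transcripts alone (-1.69 against 2.83). Rescaling R by the median ratio of genes, 1.05, lowers log2 ratios by about 0.08, which is too little to turn a family median of at least 1. Medians near 0 can turn, as for ATF4 targets (0.04, and -0.04 after rescaling). The rescaled median of cytosolic ribosomal protein genes was -0.36.

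Several metabolic families moved little but mostly in 1 direction. Of 23 genes of cholesterol synthesis 22 lay above 0, against 60.3% of all counted genes, with a median of 0.38 and none 2-fold apart. The aminoacyl-tRNA synthetases had a median of 0.27 and the ribosome biogenesis genes 0.28. Asns, which makes asparagine, was at 4.203 in N, 6.42 in P and 12.4 in R and Mthfd2, of mitochondrial folate metabolism, at 4.15 in N, 5.37 in P and 8.48 in R, the 2 of 22 ATF4 targets that were 2-fold higher. Over all counted genes 3.09% were 2-fold higher. With P as the reference 0 of 22 ATF4 targets were 2-fold higher, and their median was -0.08. Gclm, a subunit of the enzyme that limits glutathione synthesis, was at 8.13 in N, 4.65 in P and 17.2 in R.

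Epithelial and mesenchymal programs stayed near 0. The 23 epithelial genes had a median of -0.21, and Muc1 (6.82 in N, 3.72 in P and 3.29 in R) was the member that was 2-fold lower. The 11 mesenchymal genes described here had a median of -0.12. Collagens had a median of 0.05, lysosomal genes of -0.11 and p53 targets of -0.18, without a member 2-fold apart.

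Among the lowest ratios outside the families were genes of diverse function. Alox12e, a lipoxygenase of epidermis, was at 6.06 in N, 1.08 in P and 0.359 in R, the peptide hormone Cck at 9.52 in N, 6.21 in P and 1.73 in R, Fxyd2, a regulator of the sodium pump, at 7.99 in N, 4.09 in P and 1.17 in R and Smtnl2 at 6.02 in N, 5.11 in P and 0.9698 in R. Hprt had the lowest value of all (-7.80), but its locus is shared with another symbol, its reads lay on assembled transcripts, and RefSeq transcripts alone gave 0.04. Srp54c, at 5.44 in N, 0 in P and 0 in R, is a near-identical copy of neighboring genes, and its reads cannot be assigned with certainty.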

How the data were processed

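The 3 RNA libraries of 4T1 CSCsp were grouped by their labels, 1 per condition. Alignment by the authors used HISAT2 2.2.0, and StringTie (2.1.3 by the submitters' processing notes, 2.1.5 by the headers) estimated RefSeq and assembled transcripts. Each deposited transcript carries its coverage, FPKM and TPM. The processing notes name the mm9 build, while coordinates in the files match RefSeq GRCm38 genes for 99.3% of 23188 symbols. How RNA was selected and reads were filtered is not stated in the labels or methods.

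The FPKM of a gene is the sum over its RefSeq transcripts (34970 in all) and assembled ones (9386 of 12520), each given the symbol of its locus, or, where a locus holds several symbols, that with most shared exonic bases. Of the counted genes 930 share a locus with another symbol. Ratios are log2 with a pseudocount of 0.1 FPKM, and genes were counted as apart at 2-fold or more. Fragments were estimated at 300 bases per read pair from coverage. Intervals on ratios are exact Clopper-Pearson intervals on fragments at 95% and do not cover variation between cultures. With 1 library per condition no test was run, and the calculations were tested on simulated data.

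Gene families (58 lists) and cell type markers (12 lists) were described by counts and medians. The families and the genes in them were chosen with earlier results of these data known. A few genes are not reported here and were left out of the family counts and medians. List members at least 2-fold apart and the extremes of ratio and of FPKM difference could be named. Of these, examples are given, which were picked after their values were seen, as were the few genes named outside the rule. Promoter windows came from RefSeq (GRCm38.p6), and 8453 of 11203 counted genes (75.5%) had one. Alternatives were TPM, other pseudocounts, rescaling, RefSeq transcripts alone, 1 transcript per gene, other filters, and leaving out shared loci or leukocyte markers, and the library labelled P as reference. Software was SciPy 1.17.1, pandas 2.3.3 and NumPy 2.4.6 under Python 3.11.15, and figures were drawn with Matplotlib 3.10.9.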

Additional observations from a re-analysis of the deposited data

Results flagged for a closer look

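Transcripts assembled outside any annotated gene were not used above. They formed 2760 loci with an FPKM of at least 1 in N or in R, of which 127 had a ratio of 2-fold or more in favor of R and 189 in favor of N. Their median log2 ratio was -0.20, and with P as the reference 148 were higher and 137 lower. They are given because they lie outside the comparison of genes.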

How the results depend on the processing

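No paired analysis was possible because each condition had 1 library. The count of genes at least 2-fold higher (346) became 531 with RefSeq transcripts alone, 644 with 1 transcript per gene and 659 without a filter, and stayed within 1.5 times under the other 8 alternatives. For genes at least 2-fold lower (211) the counts were 390, 395 and 583 under those settings, 124 with a pseudocount of 1 and 88 with a filter of FPKM 5. No family median of at least 1 changed direction under any of the 11 alternatives.

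Most family medians moved by less than 1.5 times on the ratio scale, and the exceptions follow on the log2 scale. With RefSeq transcripts alone the median was 4.85 for immunity-related GTPases, 2.25 for the LY6 family and 1.96 for tryptophan breakdown, which gave 1.93 with 1 transcript per gene. A filter of FPKM 5 gave -0.57 for histones, 4.74 for MHC class II presentation and 1.63 for T cell chemokines. Without shared loci the values were 0.71 for complement, 4.69 for immunity-related GTPases, 0.47 for interferon regulatory factors, 1.45 for the LY6 family and 0.64 for MHC class II presentation. With no filter complement was at 0.23, checkpoint ligands at 0.29, the LY6 family at 1.45, MHC class II presentation at 1.34, tryptophan breakdown at 0.25, and markers of B cells at 0.10, of mast cells and basophils at 0.23 and of T cells at 0.48. A pseudocount of 1 gave -0.80 for histones, 2.36 for the LY6 family, 0.75 for B cell and 1.01 for T cell markers.

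With the library labelled P as reference the medians were 1.53 for acute phase genes, 2.36 for complement, 4.99 for guanylate-binding proteins, -0.80 for histones, 1.21 for interleukins and TNF family cytokines, 3.74 for MHC class II presentation, 3.48 for monocyte chemokines and 1.39 for neutrophil chemokines. Those of markers were 3.55 for B cells, 3.10 for neutrophils, 2.66 for leukocytes and 4.07 for T cells. Named genes at least 2-fold apart that turned direction with P were Ccl6 (3.40), Cxcl3 (0.66), Lyz2 (4.00) and S100a9 (4.41) and, below an FPKM of 1 in both P and R, Ccl22 (1.61), Ccl3 (2.21), Ccl9 (1.84), Il1b (0.78), Mmp12 (1.39) and Mmp8 (0.88). RefSeq transcripts alone turned Cfb (-0.11), Ifi204 (-3.78) and Ifit1 (-1.49) and, below an FPKM of 1 in both N and R under that setting, Parp11 (-1.08), Rpl26 (2.83) and Hprt (0.04), and 1 transcript per gene turned Ifit1 (-1.49) and Ly6e (-0.12). Of 157 named genes at least 2-fold apart, 134 of 143 with a value kept the call with RefSeq transcripts alone and 135 of 149 with P as reference. Low genes rest on few fragments, and differences between cultures could not be estimated. The causes of these changes were not tested.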

Other observations

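Families that received no place above moved little as groups. Of 22 matrix proteases and inhibitors, Plat, the tissue plasminogen activator, was at 8.92 in N, 9.37 in P and 3.81 in R and Adamts14, which processes procollagen, at 7.84 in N, 6.51 in P and 16.8 in R. Mmp8, the neutrophil collagenase, was at 1.42 in N, 0 in P and 0.0843 in R. Of 9 YAP target genes Ctgf was the member 2-fold apart, at 16.1 in N, 14.9 in P and 7.64 in R. Egfr, the EGF receptor, was at 2.25 in N, 1.61 in P and 0.9998 in R, and Id3, a target of BMP signaling, at 27.3 in N, 16.9 in P and 61.7 in R. None of 6 genes of tetrahydrobiopterin synthesis, 77 mitochondrial ribosomal protein genes and 13 fatty acid synthesis genes was 2-fold apart.

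Mpeg1 (perforin-2), a pore-forming protein listed here as a macrophage marker, was at 0.697 in N, 0.227 in P and 24.5 in R, 35.1-fold higher in R than in N (26.8 to 46.8). Csf1r, Adgre1 and Cd68 were not highest in R, with Csf1r at 0.761 in N, 0.148 in P and 0.442 in R, Adgre1 at 0.0417 in N, 0.02601 in P and 0.0353 in R and Cd68 at 21.4 in N, 18.04 in P and 19.2 in R. Of all 13 macrophage markers 2 had no fragments in N, 2 in P and 0 in R. Among the 4 counted markers 1 was 2-fold higher in R than in N and 1 was 2-fold lower. The part of macrophages in the Mpeg1 value was not tested.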
